A study of Arabidopsis thaliana with 8 samples.

Results

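The response to ethylene was compared between a pair of Arabidopsis thaliana lines that each carry mutant alleles for 2 components of the pyruvate dehydrogenase complex (PDC), which turns pyruvate into acetyl-CoA. For every gene, the change from air to ethylene in e1e2 was subtracted from the change in e2e3, and a gene is called here when this difference passed an adjusted p under 0.05. All 8 libraries of the series entered the comparison. Of 20193 genes with enough counts to test, 566 were called.

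Both lines were dark-grown seedlings, 3 days old, raised on plates and then given either hydrocarbon-free air or ethylene at 10 ppm. The line e1e2 carries e1-2-2 and e2-2 (#17), and e2e3 carries e2-2 and e3-2-2 (#67), so the e2-2 allele was common to all libraries. Each genotype was represented by 1 numbered line, each group (e1e2 in air, e1e2 in ethylene, e2e3 in air, e2e3 in ethylene) held 2 libraries of poly(A)-selected RNA, and the sources used here do not give the hours of gas. The title of the series places PDC in the nucleus and links it to histone acetylation directed by EIN2.

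Ethylene is a gaseous plant hormone. Its receptors keep the kinase CTR1 active in air, and CTR1 in turn holds back EIN2, a membrane protein whose released part leads to the build-up of the transcription factors EIN3 and EIL1. In dark-grown seedlings the gas causes the triple response, with a short, thick hypocotyl, a short root and an exaggerated apical hook, while the cotyledons hold plastids that have not yet greened. Acetyl-CoA is the donor of the acetyl groups placed on histones, and PDC has E1, E2 and E3 components that act in turn on pyruvate.

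Total counts per library ran from 11522823 to 18601837. Gas set the first principal component, with 64.7% of the variance, and line the second, with 11.35%. On the third (5.83%), replicate 1 of e1e2 in air stood at 18.96 and replicate 2 of the same group at -5.67. In each of the 4 groups the replicates varied beyond counting noise, with a mean chi-square per gene between 1.421 and 1.99. The labels do not say whether replicates came from separate plantings, so p-values measure only the spread between these libraries, which may be technical. The targeted genes are not named in the labels. E1 ALPHA (AT1G59900, an E1 subunit of the mitochondrial complex) lay at 19.2 to 23.1 CPM (read-pair counts over the TMM-scaled library total, on the usual CPM scale) in the 4 e1e2 libraries and at 214 to 231 CPM in the 4 e2e3 libraries. The E3 subunit gene mtLPD2 (AT3G17240) lay at 131 to 150 CPM in e1e2 and at 27.4 to 40.4 CPM in e2e3. Root and epidermal markers were present in every library, with the root beta-glucosidase gene PYK10 at 5922 to 11000 CPM and the epidermal gene PDF1 at 221 to 699 CPM.

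The response differed between the lines for 2.8% of the genes tested (edgeR quasi-likelihood F-test with Benjamini-Hochberg adjustment), and 2840 genes had an unadjusted p under 0.05. In 310 genes (1.54%) the response was higher in e2e3, meaning that the gene rose more or fell less, and in 256 (1.27%) it was lower. Most differences were small. The median absolute difference was 0.304 on the log2 scale among called genes and 0.139 among all genes tested, and 32 called genes reached a difference of 1 or more. Called genes were also abundant ones, at a median of 98.4 CPM beside 17.4 CPM for all genes tested. DESeq2 called 226 genes (6.03% of the 3750 to which it gave an adjusted p), 217 of them shared with edgeR, and its filter gave no adjusted p to 212 of the edgeR calls. When a difference had to exceed 1.2-fold by the glmTreat test, 12 genes remained.

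The called genes fell into classes by the direction of each line's own response, which takes its values from the same libraries and is a description. In 30 genes both responses passed the test with opposite signs. Another 149 had fitted responses of unlike sign, but passed the test in at most 1 line. Responses of equal sign were larger in e2e3 in 258 genes, of which 142 rose and 116 fell. They were smaller in e2e3 in 129 genes, of which 64 rose and 65 fell. No called gene lacked a response in both lines. Ethylene itself changed 39.2% of the tested genes in e1e2 and 44.0% in e2e3.

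**Figure D1:**
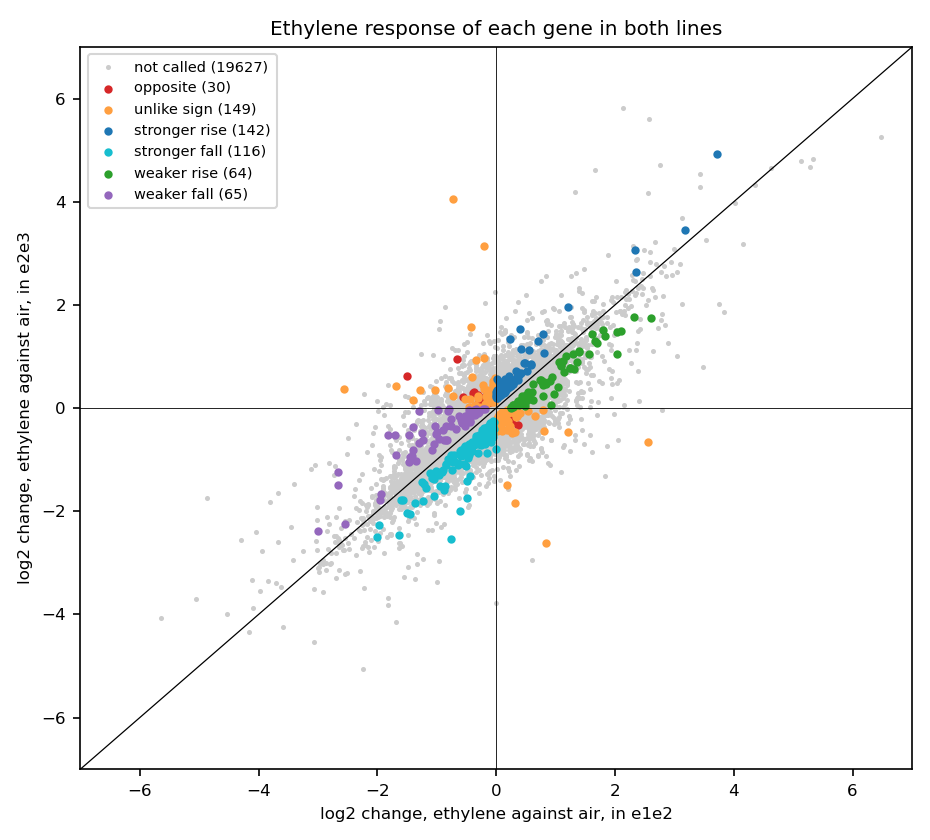
Log2 change from air to ethylene in e1e2 (horizontal) and in e2e3 (vertical) for 20193 genes, 1 point a gene, with called genes coloured by class and the diagonal marking equal responses. Most called genes lie close to the diagonal, and the 30 genes with opposite responses lie near the origin.

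Most of the called genes stood apart between the lines in air rather than in ethylene. The lines differed in air but not in ethylene for 360 of the 566 genes, in ethylene but not in air for 67, in both for 92 and in neither for 47. Among the 92, the sign of the gap turned in 27. The gap between lines was the smaller in ethylene for 433 of the called genes (76.5%), beside 56.9% of all genes tested. Of the 310 genes with the higher response in e2e3, 234 were lower in e2e3 than in e1e2 in air, and of the 256 with the lower response, 211 were higher in e2e3 in air. Of all tested genes, 14.8% differed between lines in air (9.0% higher and 5.83% lower in e2e3) and 6.56% in ethylene (4.24% higher and 2.32% lower). These comparisons use the same air libraries as the difference of responses, so they are given side by side and lend it no support.

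Of the genes that rose in one line and fell in the other and were called by both edgeR and DESeq2, KIN2 had the largest difference (AT5G15970, chr5:5211719-5212743 in TAIR10), a cold- and abscisic acid-induced gene also known as COR6.6. KIN2 stood at 215 and 222 CPM in e1e2 in air and at 147 and 150 CPM in e1e2 in ethylene. In e2e3 it stood at 166 and 164 CPM in air and at 183 and 202 CPM in ethylene. The groups did not overlap: e1e2 in air was the highest and e1e2 in ethylene the lowest. Its log2 change was -0.56 in e1e2 and 0.22 in e2e3, both past the test, and the responses differed by 0.78 ± 0.06 (SE) or 1.71-fold (edgeR adjusted p = 7.75e-25). It was called in all 8 fits that each left out a library. KIN1, its tandem neighbour with a near-identical sequence, had a difference of 0.01 and was not called (edgeR adjusted p = 0.986). Reads that map to both genes were not counted, so each value rests on the reads that tell the copies apart.

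The other leading genes of this kind that rose in e2e3 were AT4G36850, DOT1 and ACP4. AT4G36850 encodes a membrane protein with PQ-loop repeats. It went from 86.5 and 90.3 CPM in air to 72.4 and 71.3 CPM in ethylene in e1e2, and from 52.7 and 51.6 CPM to 62.2 and 62.4 CPM in e2e3. The lines moved toward each other, with a difference of responses of 0.56 ± 0.08 (edgeR adjusted p = 1.71e-07). DOT1 (AT2G36120), a glycine-rich protein gene with a part in leaf vein patterning, went from 243 and 236 CPM to 200 CPM in both ethylene libraries of e1e2, and from 160 and 162 CPM to 187 and 179 CPM in e2e3. Its groups did not overlap, and the difference was 0.44 ± 0.06 (edgeR adjusted p = 1.70e-09). ACP4 (AT4G25050) encodes an acyl carrier protein of plastid fatty acid synthesis. It went from 82.4 and 89.3 CPM to 71.3 and 69.9 CPM in e1e2, and from 71.9 and 72.1 CPM to 76.2 and 81.9 CPM in e2e3. The air libraries of e2e3 lay close to the ethylene libraries of e1e2, and the difference was 0.42 ± 0.08 (edgeR adjusted p = 0.000101).

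Of the 20 genes that fell in e1e2 and rose in e2e3, several others encode plastid proteins. Those with such an annotation include the antenna genes LHCA3, CAB1 and LHCB4.1, PSB27 of photosystem II and AT2G26500 for the petM subunit of the cytochrome b6f complex. The outer envelope channel gene OEP16-1 is another. PMI1, also among the 20, acts in plastid movement. The differences of these genes ran from 0.23 in LHCB4.1 to 0.44 in PMI1, and they were picked out by annotation after their values were seen. The share of such genes among all tested genes was not counted. GRP7 (AT2G21660), an RNA-binding protein under clock control, moved in the same way. It went from 847 and 821 CPM to 743 and 754 CPM in e1e2, and from 833 and 823 CPM to 879 and 901 CPM in e2e3. The air libraries of the lines overlapped and the ethylene libraries did not, and the difference was 0.26 ± 0.05 (edgeR adjusted p = 5.70e-05).

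LTI65 (AT5G52300, also called RD29B), induced by drought and abscisic acid, was the most abundant of the 10 genes that rose in e1e2 and fell in e2e3. It stood at 451 and 436 CPM in e1e2 in air and at 527 and 526 CPM in ethylene, and in e2e3 at 637 and 644 CPM in air and at 537 and 546 CPM in ethylene. The ethylene groups of the lines lay next to each other, between the air groups. The difference was -0.49 ± 0.05 (edgeR adjusted p = 1.25e-15), and the gene was called without any of the 8 libraries in turn.

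GSTU25 (AT1G17180, a tau-class glutathione transferase) went from 42.9 and 44.3 CPM to 55.3 and 55.6 CPM in e1e2, and from 110 and 104 CPM to 97.8 and 96.3 CPM in e2e3. Here e2e3 was above e1e2 in both gases, and the difference was -0.48 ± 0.08 (edgeR adjusted p = 1.39e-05). SUS3 (AT4G02280, a sucrose synthase) went from 88.7 and 93.1 CPM to 104 and 94.9 CPM in e1e2 and from 112 and 111 CPM to 101 and 96.2 CPM in e2e3. Its ethylene libraries overlapped between the lines, and its difference of -0.31 ± 0.07 (edgeR adjusted p = 0.00370) was called in 6 of 8 fits without a library. The plastid locus ATCG00480 went from 119 and 119 CPM to 131 and 155 CPM in e1e2 and from 144 and 137 CPM to 98.1 and 105 CPM in e2e3, a difference of -0.73 ± 0.07 (edgeR adjusted p = 1.27e-14). The libraries were poly(A)-selected, and plastid transcripts made up 0.0983% to 0.1121% of counts in e2e3 and 0.1241% to 0.1487% in e1e2. The part of that share in the result was not tested.

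**Figure D2:**
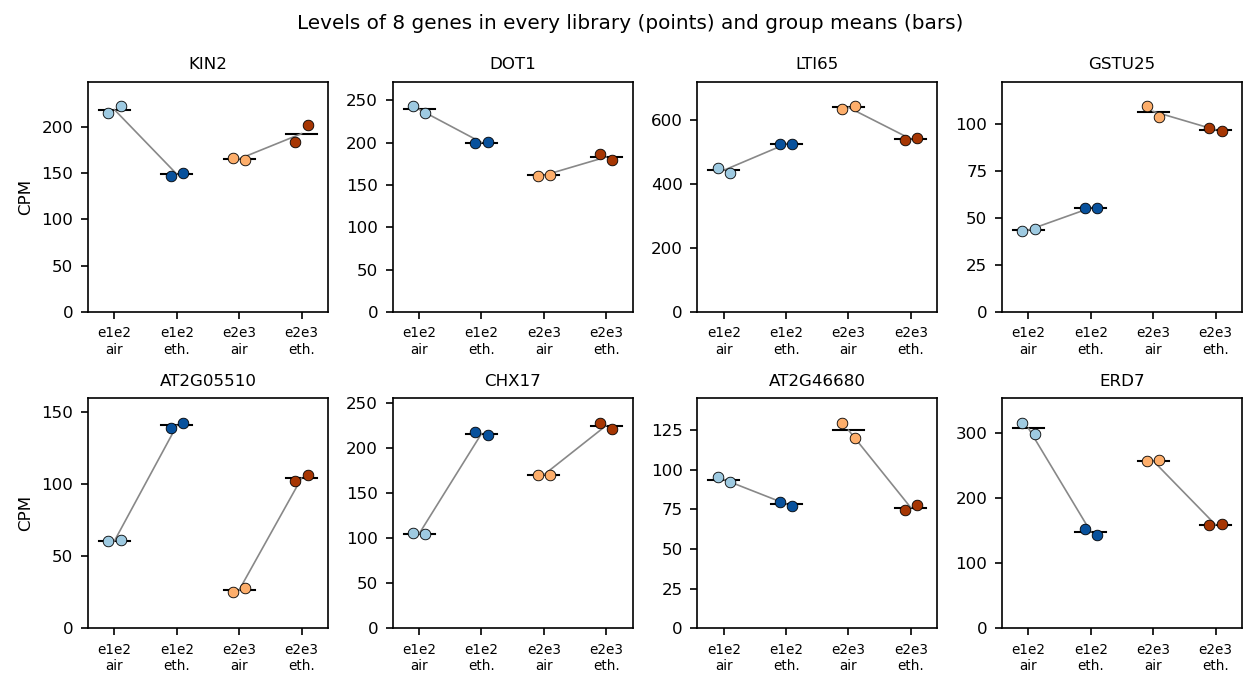
CPM of 8 genes in each of the 8 libraries (points, linear axes from 0), with group means as bars joined within a line. The top row shows genes with opposite responses and the bottom row a stronger rise, a weaker rise, a stronger fall and a weaker fall in e2e3; in KIN2 the line from air to ethylene falls in e1e2 and climbs in e2e3, and in LTI65 it does the reverse.

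The 200 bases before the annotated start of both stress genes are shown because the genes turned in opposite directions while sharing a motif. Capitals mark ACGTG, the core of the abscisic acid-responsive element bound by bZIP factors, and CCGAC, the core of the drought and cold element, on either strand. Sequences are from the RefSeq TAIR10.1 assembly, read 5′ to 3′ along the gene.
KIN2 (AT5G15970), chr5:5211519-5211718, plus strand: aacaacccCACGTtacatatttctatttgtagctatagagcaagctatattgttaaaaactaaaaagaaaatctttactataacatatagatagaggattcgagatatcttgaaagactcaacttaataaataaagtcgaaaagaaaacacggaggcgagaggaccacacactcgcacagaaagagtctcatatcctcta
LTI65 (AT5G52300), chr5:21236821-21237020, plus strand: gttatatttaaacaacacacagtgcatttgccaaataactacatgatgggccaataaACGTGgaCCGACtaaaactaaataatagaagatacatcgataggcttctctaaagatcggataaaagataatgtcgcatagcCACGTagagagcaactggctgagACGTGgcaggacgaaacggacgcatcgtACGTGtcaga
LTI65 held 4 matches to ACGTG and 1 to CCGAC, and KIN2 held 1 and 0. The first motif was in the window of 21.2% of the 20108 tested genes of the 5 nuclear chromosomes with a full window, in 26.6% of those with the higher and 24.4% of those with the lower response in e2e3. The second motif, CCGAC, was in 11% of all windows, 9.63% of the higher and 13.8% of the lower. These matches are a description of letters and do not show binding.

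Genes of the light-harvesting antenna had the higher response in e2e3 almost as a body. The antenna proteins bind chlorophyll around the photosystems. Of 20 listed genes, 19 were tested and 17 were called (89.5%, beside 1.54% of all tested genes in this direction), all with the higher response in e2e3. The median difference of the list was 0.259 on the log2 scale, beside -0.0136 for all genes tested. This list and the others below were chosen with earlier results of these data known, so their shares are a description. In RNA from whole seedlings, fewer cells of a type and less RNA per cell cannot be told apart. In e1e2, 15 of the 19 fell in ethylene and 0 rose, whereas in e2e3, 8 fell and 6 rose. Of all tested genes, 20.9% fell and 18.3% rose in e1e2, and 23.6% fell and 20.3% rose in e2e3. In air, 18 were lower in e2e3 than in e1e2 (background 5.83% lower), and in ethylene 9 were (background 2.32%). DESeq2 called 14 of the 17, and 0 passed the 1.2-fold test. Small differences are called more readily in abundant genes, as the called genes had a median of 98.4 CPM beside 17.4 CPM for all. The share was not compared with that of genes of like level. Without 1 library at a time the count ran from 10, without replicate 1 of e2e3 in air or replicate 2 of e2e3 in ethylene, to 17.

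Within the antenna, the LHCB2 genes of the trimeric photosystem II antenna had the largest differences. LHCB2.1 (AT2G05100) went from 212 and 196 CPM to 110 and 107 CPM in e1e2 and from 148 and 157 CPM to 109 and 118 CPM in e2e3. The lines were apart in air and close in ethylene, and the difference was 0.47 ± 0.06 (edgeR adjusted p = 1.16e-08). LHCB2.2 (AT2G05070) went from 139 and 130 CPM to 65.6 and 67.3 CPM in e1e2 and from 101 CPM in both air libraries to 67.5 and 75.4 CPM in e2e3. Its ethylene groups did not overlap but were adjacent, and the difference was 0.51 ± 0.08 (edgeR adjusted p = 1.22e-07). LHCB2.3 (AT3G27690) fell from 70.2 and 68.6 CPM to 25.7 and 25.1 CPM in e1e2 and from 37.2 and 44.6 CPM to 19.9 and 23.0 CPM in e2e3, a difference of 0.51 ± 0.11 (edgeR adjusted p = 0.00188). Exons of other genes cover 40.6% of its exon bases, and reads shared between genes were left out.

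The most abundant member, CAB1 (AT1G29930, an LHCB1 gene), fell from 4573 and 4442 CPM to 4000 and 3935 CPM in e1e2. In e2e3 it rose from 3188 and 3291 CPM to 3418 and 3627 CPM. No group overlapped another, and the difference was 0.30 ± 0.05 (edgeR adjusted p = 1.80e-07). CAB2 (AT1G29920) went from 187 and 177 CPM to 132 and 122 CPM in e1e2 and from 105 and 120 CPM to 99.0 and 103 CPM in e2e3, a difference of 0.36 ± 0.07 (edgeR adjusted p = 0.000110). LHCB1 and LHCB2 genes have near-identical copies, and their separate values are uncertain because shared reads were left out. Outside these families, LHCA3 of photosystem I changed by -0.12 in e1e2 and 0.21 in e2e3, and its difference was 0.33 ± 0.05 (edgeR adjusted p = 1.80e-07). Lhca6 (AT1G19150) had a difference of 0.37 ± 0.10 (edgeR adjusted p = 0.0163). Of the members not called, Lhca5 had the highest level, with a difference of 0.21 ± 0.13 (edgeR adjusted p = 0.494).

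Windows of 2 antenna genes, LHCB2.3 with the largest fall of the list in e1e2 and LHCB6 with a small one, are shown for their light-related motifs. Capitals mark ACGTG, which is also part of the G-box CACGTG, and GATAAG, the I-box of light-regulated promoters, on either strand (RefSeq TAIR10.1, 5′ to 3′ along the gene).
LHCB2.3 (AT3G27690), chr3:10255706-10255905, plus strand: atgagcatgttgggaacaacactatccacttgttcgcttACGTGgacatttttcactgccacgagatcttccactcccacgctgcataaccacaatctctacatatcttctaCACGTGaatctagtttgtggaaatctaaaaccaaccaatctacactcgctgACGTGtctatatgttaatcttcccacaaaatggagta
LHCB6 (AT1G15820), chr1:5447881-5448080, minus strand: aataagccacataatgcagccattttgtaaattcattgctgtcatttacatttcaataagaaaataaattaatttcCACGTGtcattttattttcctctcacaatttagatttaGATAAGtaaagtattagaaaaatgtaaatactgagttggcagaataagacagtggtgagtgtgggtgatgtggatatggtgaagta
LHCB2.3 held 4 matches to ACGTG, with 1 G-box, and LHCB6 held 1 G-box, which counts as 2 overlapping matches to ACGTG, and 1 I-box. Over the 55 tested antenna and photosystem genes, 25.5% held GATAAG, 11 genes held CACGTG and 40.0% held ACGTG. Over all 20108 windows the shares were 9.99%, 6.68% and 21.2%. GATAAG was in 17.3% of windows with the higher and 13.4% of those with the lower response in e2e3. The evening element AAATATCT was in 7.64% of the higher, 3.15% of the lower and 4.03% of all windows, and in 0 of the 55. The GCC box GCCGCC, bound by ethylene response factors, was in 1.66%, 0.394% and 1.54%.

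Subunits of the photosystems, electron carriers and the carbon fixation enzyme moved in the same direction as the antenna, but from another starting response. This list too was chosen with earlier results known, and its share was not compared with that of genes of like level. All 36 listed genes were tested and 24 were called, all with the higher response in e2e3. That was 66.7%, beside 1.54% of all tested genes in this direction. The median difference was 0.229, beside -0.0136 for all genes tested. In e1e2, 14 rose in ethylene and 3 fell, while in e2e3, 32 rose and 0 fell. In air, 35 were lower in e2e3 (background 5.83% lower), and in ethylene 2 were (background 2.32%). DESeq2 called 18 of the 24, or 6 without its independent filter, and 0 passed the 1.2-fold test. Leaving out a library gave between 9, without replicate 2 of e2e3 in ethylene, and 27. The count was 13 and 14 without replicate 1 or 2 of e1e2 in ethylene and 11 without replicate 1 of e2e3 in air.

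PSBTN (AT3G21055, a small subunit of photosystem II) stood at 136 and 132 CPM in e1e2 in air and at 145 and 144 CPM in ethylene, and in e2e3 at 106 and 114 CPM in air and at 148 and 153 CPM in ethylene. The air libraries of e2e3 were the lowest, and the difference was 0.34 ± 0.06 (edgeR adjusted p = 0.000149). DRT112 (AT1G20340), the main plastocyanin gene, had a difference of 0.31 ± 0.05 (edgeR adjusted p = 1.96e-05). PSAH-1 of photosystem I had 0.30 ± 0.07 (edgeR adjusted p = 0.00119), and PSBP-1 of the oxygen-evolving complex 0.28 ± 0.05 (edgeR adjusted p = 1.96e-05). Exons of other genes cover 53.3% of the exon bases of PSAH-1, and reads shared between genes were left out. RBCS1A (AT1G67090), the leading small-subunit gene of Rubisco, went from 4046 and 4129 CPM to 4198 and 4241 CPM in e1e2 and from 3384 and 3563 CPM to 4147 and 4315 CPM in e2e3. Its ethylene libraries overlapped between lines and its air libraries did not, and the difference was 0.24 ± 0.05 (edgeR adjusted p = 0.000110). The RBCS genes share near-identical sequence and their separate values are uncertain. Rubisco activase, RCA, was the most abundant member not called, with a difference of 0.10 ± 0.05 (edgeR adjusted p = 0.287).

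**Figure D3:**
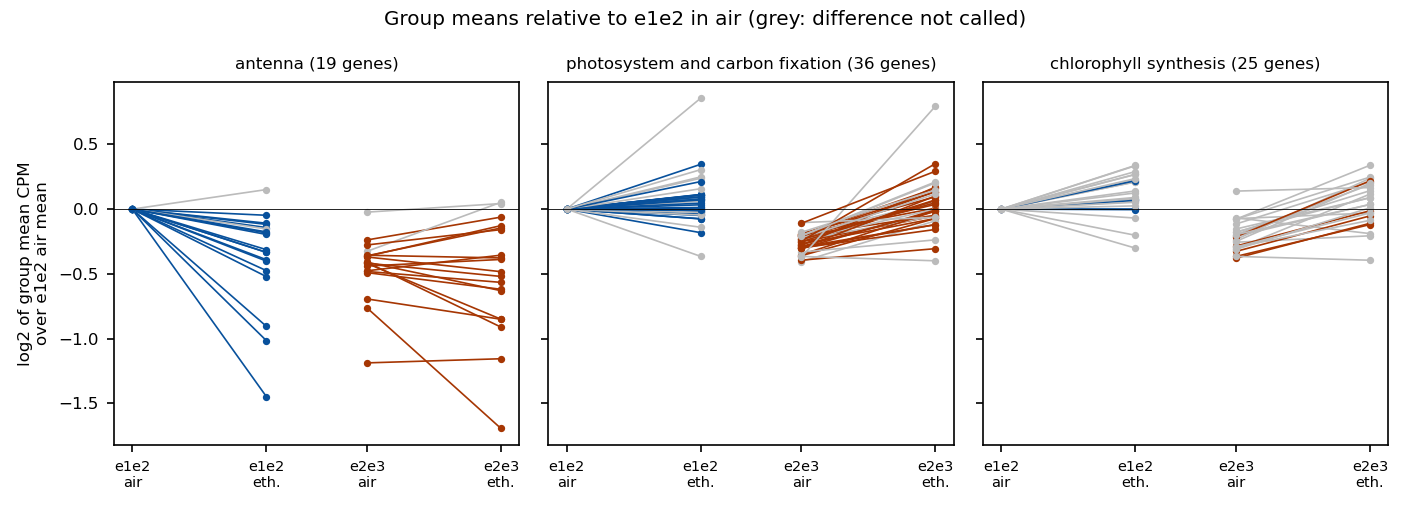
Log2 of group mean CPM relative to the e1e2 air mean for the tested members of 3 lists, each gene drawn as a segment from air to ethylene in e1e2 (left pair) and in e2e3 (right pair). Coloured segments are called genes and grey ones are not; most e2e3 air points lie below 0, and in the middle panel the e2e3 ethylene points return to near 0.

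Fewer genes of chlorophyll synthesis were called. Of 25 tested, 5 (20%, beside 1.54% of all genes in this direction) were called, all with the higher response in e2e3, and the median was 0.152. DESeq2 called 5, of which 4 were shared with edgeR, or 1 without its independent filter. The edgeR calls were HEME1 (0.27 ± 0.07), CHLM (0.24 ± 0.06), PORA (0.21 ± 0.05), CRD1 (0.20 ± 0.05) and the magnesium chelatase subunit GUN5 (0.19 ± 0.05). Each value is on the log2 scale with its SE. HEME1 was not called by DESeq2 (adjusted p = 0.0566). PORA (AT5G54190) reduces protochlorophyllide and is abundant in the dark. It went from 1576 and 1456 CPM to 1766 and 1764 CPM in e1e2 and from 1284 and 1329 CPM to 1742 and 1786 CPM in e2e3. The ethylene levels of the lines overlapped and the air levels did not (edgeR adjusted p of the difference = 0.00132). PORB, its more abundant relative, was not called by edgeR at 0.13 ± 0.05 (edgeR adjusted p = 0.120) but was called by DESeq2 (adjusted p = 0.0467). The count fell to 1 without replicate 1 of e1e2 in ethylene, replicate 1 of e2e3 in air or replicate 2 of e2e3 in ethylene, and to 3 and 2 without replicate 1 of e1e2 in air and replicate 2 of e1e2 in ethylene. Of 24 regulators of greening and growth in the dark (GLK, sigma factor, PIF, HY5 and photoreceptor genes), edgeR called 0, with 4 at an unadjusted p under 0.05, and DESeq2 called 0. Over all 20193 genes tested, 2.8% were called and 2840 had such a p, so 0 calls among 24 genes is near the background. Among these regulators, the light receptor PHYA had the highest level and a difference of -0.07 ± 0.05 (edgeR adjusted p = 0.583).

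Genes induced by cold and abscisic acid split in direction. Of 23 tested, 2 had the higher response in e2e3 (KIN2 and ERD7) and 3 the lower (LTI65, LTI30 and RD22). Together they were 21.7% of the list, beside 2.8% of all genes tested, and all 5 were also called by DESeq2. Without replicate 1 of e1e2 in ethylene, 3 were called. ERD7 (AT2G17840), a dehydration-induced gene, fell from 316 and 299 CPM to 153 and 143 CPM in e1e2 and from 256 and 258 CPM to 158 and 160 CPM in e2e3. The lines were further apart in air than in ethylene, and the difference was 0.36 ± 0.06 (edgeR adjusted p = 2.15e-06). LTI30 (AT3G50970, a dehydrin) rose from 122 and 128 CPM to 268 and 263 CPM in e1e2 and from 151 and 141 CPM to 256 and 262 CPM in e2e3. Its ethylene libraries lay close together, and the difference was -0.26 ± 0.06 (edgeR adjusted p = 0.00261). COR47, the most abundant member, was not called at 0.08 ± 0.05 (edgeR adjusted p = 0.421).

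Among stronger rises in e2e3 called by both edgeR and DESeq2, the largest differences were in AT2G05510, a glycine-rich protein gene, and AT1G49570, a peroxidase gene. AT2G05510 rose from 60.4 and 60.9 CPM to 139 and 143 CPM in e1e2 and from 25.5 and 27.6 CPM to 102 and 106 CPM in e2e3. Its level was lower in e2e3 in both gases, and the difference was 0.75 ± 0.09 (edgeR adjusted p = 9.61e-13). AT1G49570 rose from 46.7 and 39.1 CPM to 220 and 213 CPM in e1e2 and from 23.6 and 21.1 CPM to 185 and 188 CPM in e2e3, a difference of 0.73 ± 0.09 (edgeR adjusted p = 2.04e-11). Both genes passed the 1.2-fold test. HSP70 (AT3G12580), a heat-induced chaperone, rose from 122 CPM in both libraries to 147 and 136 CPM in e1e2 and from 99.8 and 99.2 CPM to 153 and 154 CPM in e2e3, a difference of 0.41 ± 0.07 (edgeR adjusted p = 2.41e-06). The transcription factor gene GATA4 (AT3G60530) had a difference of 0.35 ± 0.06 (edgeR adjusted p = 1.24e-06). The gene for the plastid-type ribosomal protein PRPL35 rose in e2e3 by 0.44 and had a fitted change of 0.07 in e1e2, which did not pass the test (difference 0.37 ± 0.07, edgeR adjusted p = 0.000102).

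Among stronger falls in e2e3, MRN1 (AT5G42600, marneral synthase of triterpene synthesis) stood out by its size in both lines. It fell from 172 and 163 CPM to 38.7 and 44.6 CPM in e1e2 and from 185 and 180 CPM to 30.1 and 34.0 CPM in e2e3. The lines were nearer in air than in ethylene, and the difference was -0.51 ± 0.08 (edgeR adjusted p = 4.56e-06). SPS2F (AT5G11110, a sucrose phosphate synthase) stood at 79.2 and 74.5 CPM in e1e2 in air, 72.9 and 73.8 CPM in e1e2 in ethylene, 118 and 117 CPM in e2e3 in air and 82.6 and 80.9 CPM in e2e3 in ethylene. Only the air libraries of e2e3 stood clear of the others, and the difference was -0.46 ± 0.08 (edgeR adjusted p = 4.05e-06). AT2G46680, annotated as homeobox 7 and regulated by abscisic acid, stood at 95.7 and 92.2 CPM, then 79.5 and 77.4 CPM in e1e2, and at 130 and 120 CPM, then 74.4 and 77.9 CPM in e2e3. Its ethylene libraries overlapped between lines, and the difference was -0.46 ± 0.07 (edgeR adjusted p = 3.46e-06).

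ABF2 (AT1G45249), a bZIP factor that binds the abscisic acid-responsive element, fell in e2e3 by 0.40. Its change in e1e2 was -0.04 and did not pass the test, and the difference was -0.36 ± 0.08 (edgeR adjusted p = 0.00302). EULS3, a carbohydrate-binding lectin, had a difference of -0.40 ± 0.08 (edgeR adjusted p = 0.000363), and AT1G72700, annotated as an E1-E2 type ATPase, had -0.37 ± 0.07 (edgeR adjusted p = 0.000239).

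Of the weaker rises in e2e3 called by both edgeR and DESeq2, that of CHX17 (AT4G23700), a cation/proton exchanger, differed most. CHX17 rose from 106 and 104 CPM to 218 and 215 CPM in e1e2 and from 171 and 170 CPM to 228 and 222 CPM in e2e3. The air groups were far apart and the ethylene groups adjacent, and the difference was -0.64 ± 0.06 or 1.56-fold (edgeR adjusted p = 1.48e-17). AT4G01870, a TolB-like protein gene, rose from 67.3 and 63.2 CPM to 280 and 278 CPM in e1e2 and from 88.4 and 93.6 CPM to 262 and 249 CPM in e2e3, a difference of -0.61 ± 0.07 (edgeR adjusted p = 6.10e-14). AT1G19900, related to glyoxal oxidases, rose in both lines, with log2 changes of 2.32 in e1e2 and 1.76 in e2e3 and a difference of -0.57 ± 0.08 (edgeR adjusted p = 1.16e-07). In these 2 genes e2e3 was above e1e2 in air and below it in ethylene.

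LEA7 (AT1G52690, a late embryogenesis abundant protein) rose from 255 and 250 CPM to 345 and 358 CPM in e1e2, while in e2e3 it stood at 307 and 290 CPM in air and at 300 and 316 CPM in ethylene. The e2e3 libraries of both gases overlapped, its change in e2e3 of 0.05 did not pass the test, and the difference was -0.43 ± 0.05 (edgeR adjusted p = 1.34e-10). PYD4, with predicted beta-alanine aminotransferase activity, had a difference of -0.45 ± 0.08 (edgeR adjusted p = 0.000103). PAT1, a GRAS protein of phytochrome A signalling, had -0.34 ± 0.07 (edgeR adjusted p = 0.000684).

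Apart from antenna genes and ERD7, the weaker falls included AT5G35660, a glycine-rich protein gene, and AT2G23120, a late embryogenesis abundant gene. AT5G35660 fell from 103 and 110 CPM to 69.4 and 68.2 CPM in e1e2 and from 139 and 132 CPM to 120 and 125 CPM in e2e3. Unlike most called genes, its lines were further apart in ethylene, and the difference was 0.48 ± 0.07 (edgeR adjusted p = 1.22e-07). AT2G23120 had a difference of 0.35 ± 0.06 (edgeR adjusted p = 5.33e-06).

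In the ethylene pathway itself, the calls depended on the settings. Of 18 genes of perception and signalling, edgeR called 1 with the higher and 2 with the lower response in e2e3 (16.7%, beside 2.8% of all genes tested; median -0.115). DESeq2 called 0 with or without its independent filter, which gave AT3G11100 no adjusted p. No member was called by edgeR without either e1e2 ethylene library, replicate 2 of e2e3 in air or replicate 2 of e2e3 in ethylene, and 1 was called without replicate 1 of e2e3 in air. EIN2 and EBF1 were also not called with RLE scaling, with no filter or without robust estimation, and EBF1 was not called with library size scaling. EIN2 (AT5G03280) rose from 364 and 357 CPM to 558 and 554 CPM in e1e2 and from 378 and 377 CPM to 531 and 507 CPM in e2e3. The ethylene groups did not overlap, but the difference was small, at -0.17 ± 0.05 (edgeR adjusted p = 0.0437), and it was called in 2 of 8 fits without a library. EBF1 (AT2G25490), an F-box protein that marks EIN3 for breakdown, rose from 73.4 and 84.3 CPM to 108 and 98.9 CPM in e1e2 and from 79.9 and 77.4 CPM to 85.9 and 86.2 CPM in e2e3. Its difference was -0.25 ± 0.08 (edgeR adjusted p = 0.0419) and was called in 1 of 8 such fits. AT3G11100, a DNA-binding protein gene, had 0.39 ± 0.11 (edgeR adjusted p = 0.0184). CTR1 and EBF2 rose in both lines and were not called, with differences of -0.13 ± 0.06 (edgeR adjusted p = 0.269) and -0.12 ± 0.06 (edgeR adjusted p = 0.287).

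Of 16 ethylene response genes, 12 rose in each line, at a median of 1.65 on the log2 scale in e1e2 and 1.61 in e2e3. EdgeR called 0 of their differences and DESeq2 called 0, with 4 at an unadjusted p under 0.05. Over all 20193 genes tested, 2.8% were called and 2840 had such a p, so 0 calls among 16 genes is near the background. TEM1, the most abundant of the 16 and a RAV-type transcription factor gene, rose by 1.61 in both lines. It went from 91.7 to 103 CPM over the 4 air libraries to 282 to 307 CPM over the 4 ethylene libraries. Its difference was -0.00 ± 0.06 (edgeR adjusted p = 0.989). ERF1, at 5.59 CPM or less in every library, had a difference of -0.96 ± 0.74 (edgeR adjusted p = 0.606), an interval too wide to say that the lines act alike. Among 15 genes of ethylene synthesis, 1 was called: AT1G12010, an ACC oxidase gene at 3.76 to 11.3 CPM, with -0.88 ± 0.25 (edgeR adjusted p = 0.0268), called in 3 of 8 fits without a library. The 1 call was 6.67% of the list, beside 2.8% of all genes tested. AT1G62380 (ACC oxidase 2), the most abundant in that list, rose from 1278 and 1244 CPM to 3777 and 3727 CPM in e1e2. In e2e3 it rose from 1318 and 1310 CPM to 3954 and 3971 CPM, and it was not called (0.02 ± 0.05, edgeR adjusted p = 0.903).

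For 25 histone acetyltransferase and deacetylase genes, edgeR called 0, with 2 at an unadjusted p under 0.05, and DESeq2 called 0. Over all 20193 genes tested, 2.8% were called and 2840 had such a p. In a list of this size, 0 calls is near that share and does not set these genes apart. The most abundant of the histone list, HD1 (histone deacetylase 1, HDA19), had a difference of 0.06 ± 0.06 (edgeR adjusted p = 0.729). Of 15 PDC subunit genes, mtLPD2 alone was called by edgeR (6.67%, beside 2.8% of all genes tested), and DESeq2 called 0. Its difference was 0.32 ± 0.09 (edgeR adjusted p = 0.0195, DESeq2 adjusted p = 0.0546). In the fits that each left out a library this difference ran from 0.24 to 0.39, and the call did not hold in all of them. The mtLPD2 gene rose in both lines from levels that differed between them. It went from 138 and 131 CPM to 149 and 150 CPM in e1e2 and from 27.4 and 27.9 CPM to 36.4 and 40.4 CPM in e2e3. E1 ALPHA had a difference of 0.10 ± 0.10 (edgeR adjusted p = 0.724). For 24 genes of the TCA cycle and citrate lyase, edgeR and DESeq2 called 0, with 3 at an unadjusted p under 0.05. That too is near the 2.8% of all genes called.

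Among 21 hypoxia and fermentation genes, 3 had the lower response in e2e3 and 0 the higher, by edgeR (14.3%, beside 1.27% of all genes in this direction). DESeq2 called 0, but its filter gave AT4G33070 no adjusted p, and without that filter it called AT4G33070 alone. AT4G33070, annotated as a pyruvate decarboxylase, rose from 11.8 and 12.9 CPM to 24.5 and 24.1 CPM in e1e2 and from 47.3 and 49.4 CPM to 57.6 and 60.1 CPM in e2e3. All e2e3 libraries lay above all e1e2 libraries, and the difference was -0.69 ± 0.13 (edgeR adjusted p = 5.15e-05). FTM1 (AT1G43800, a stearoyl-ACP desaturase gene at 1.18 to 5.40 CPM) rose in e1e2 by 1.2 on the log2 scale, while its change of -0.47 in e2e3 did not pass the test, a difference of -1.68 ± 0.38 (edgeR adjusted p = 0.00252). RAP2.12, a transcription factor of oxygen sensing, had -0.18 ± 0.06 (edgeR adjusted p = 0.0479). RAP2.12 was called in 3 of 8 fits without a library, and not with RLE or library size scaling, with no filter or without robust estimation. Among 16 iron genes, the root iron uptake genes IRT1 and FRO2 had the higher response in e2e3 by edgeR (12.5%, beside 1.54% of all genes in this direction). DESeq2's filter gave neither an adjusted p, and without that filter it called IRT1 alone. IRT1 (AT4G19690) rose from 41.6 and 39.2 CPM to 64.3 and 67.5 CPM in e1e2 and from 11.7 and 11.2 CPM to 28.5 and 28 CPM in e2e3, a difference of 0.60 ± 0.12 (edgeR adjusted p = 0.000377). All e2e3 libraries lay below all e1e2 libraries, as they did for FRO2 (0.72 ± 0.22, edgeR adjusted p = 0.0466), which was called in 1 of 8 fits without a library.

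The seed storage and late embryo list gave 2 calls in each direction among 18 genes, and 9 calls in all without replicate 1 of e2e3 in air. The edgeR calls were 22.2% of the list, beside 2.8% of all genes tested. Without robust estimation it gave 7 higher and 2 lower calls, with no filter 5 and 2, and with DESeq2 1 and 1. By edgeR, SESA2 (0.74 ± 0.13) and EM1 (0.31 ± 0.08) had the higher response in e2e3, and OLEO2 (-0.45 ± 0.09) and LEA7 the lower. Of these, DESeq2 called LEA7 alone. It gave SESA2 and OLEO2 no adjusted p, and EM1 had 0.0906 by DESeq2. CRA1, a seed storage protein gene, was the most abundant member not called by edgeR (0.57 ± 0.15, edgeR adjusted p = 0.198). DESeq2 called CRA1 as higher (adjusted p = 0.00579). SESA2, a storage albumin with near-identical neighbours, stood at 31.5 and 43.2 CPM in e1e2 in air and between 21.2 and 24.1 CPM in the other 6 libraries, so its difference rested on the e1e2 air group. Malate synthase (MLS, AT5G03860) of oil breakdown fell from 781 and 759 CPM to 607 and 585 CPM in e1e2 and from 834 and 858 CPM to 759 and 805 CPM in e2e3, a difference of 0.26 ± 0.05 (edgeR adjusted p = 0.000101). MLS was the 1 call among 11 genes of oil breakdown (9.09%, beside 2.8% of all genes tested). Library size scaling gave 3 calls in that list. Of 27 circadian clock genes, edgeR called GRP7 alone (3.7%, near the 2.8% of all genes tested), and DESeq2 called 2. In the remaining lists, 1 of 28 expansin and xyloglucan genes, 1 of 28 auxin genes, 1 of 15 phenylpropanoid genes, 1 of 16 jasmonate and defence genes and, with HSP70, 2 of 20 heat shock genes were called (3.57%, 3.57%, 6.67%, 6.25% and 10%, beside 2.8% of all genes tested). EdgeR called the expansin gene EXPA12 (1.22 ± 0.34 at 0.575 to 31.9 CPM), the auxin response factor NPH4 (-0.24 ± 0.07), PAL4 of phenylpropanoid synthesis (-0.23 ± 0.07), the camalexin gene PAD3 (-1.68 ± 0.41 at 1.41 to 5.39 CPM) and HSP17.6II (1.99 ± 0.55 at 0.359 to 2.3 CPM, a gene with a near-identical neighbour). EXPA12, NPH4 and PAL4 were called in 2, 1 and 3 of the 8 fits without a library. NPH4 was not called with RLE or library size scaling, with no filter, without robust estimation or by DESeq2, and PAL4 was not called with library size scaling, with no filter or by DESeq2. No member was called by edgeR or DESeq2 among 12 mitochondrial stress, 15 root hair, 14 root tissue and 10 shoot and stomatal genes. At an unadjusted p under 0.05 there were 4, 6, 0 and 2, beside 2840 of all 20193 genes tested. With 2.8% of all genes called, 0 calls in lists of this size is near the background. That holds for the calls only. The root hair list had a median difference of -0.212, with 3 of its 15 members above 0. Over all genes tested the median was -0.0136, with 9537 above 0.

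**Figure D4:**
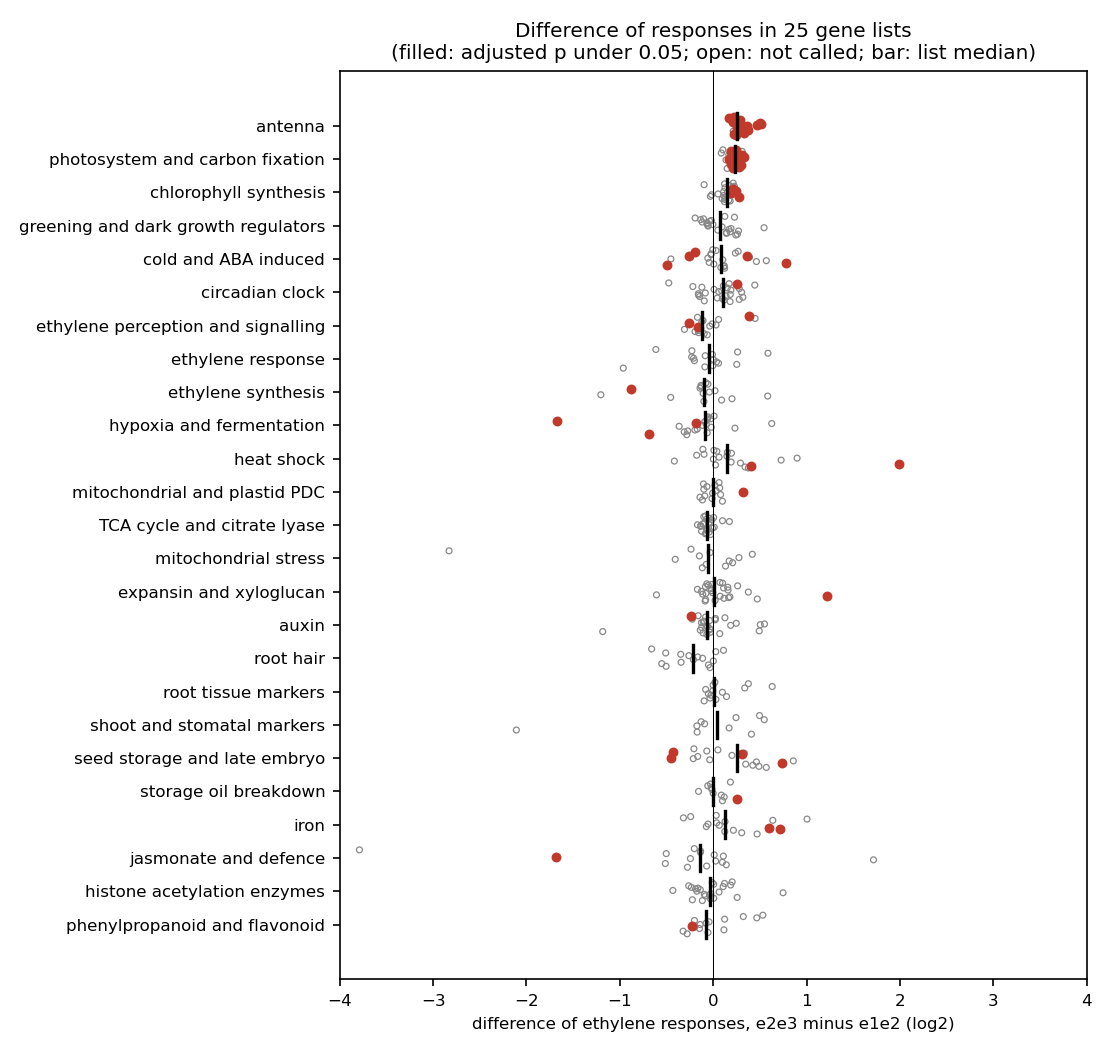
Difference of ethylene responses (e2e3 minus e1e2, log2) for the tested members of 25 gene lists, with filled points for called genes, open points for those not called and bars for list medians. The antenna and photosystem members all lie to the right of 0, while the ethylene response and histone acetylation lists hold no filled point.

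The authors' deposited table of genes that they called in wild type, each changed by at least 2-fold there, gave a description beside the lines. It listed 1242 genes, of which 1190 were tested here. Of these, 98 (8.24%) were called for a difference of responses, beside 2.8% of all genes tested. For 70 of the 98, as for 879 of the 1190, both lines' changes fell short of the wild-type change in the authors' deposited table. These counts include genes that moved against the wild-type direction, such as AT5G35660. The change in e2e3 was the nearer to wild type in 61 of the 98 and the change in e1e2 in 37, beside 643 of 1190 nearer in e2e3. For KIN2 the authors' deposited table gave -2.54 in wild type, -0.56 in e1e2 and 0.23 in e2e3. For AT1G19900 the authors' deposited table gave 3.46, 2.32 and 1.76, and for AT5G18600, a thioredoxin superfamily gene, 1.13, 0.40 and 1.54. AT5G35660 had 1.32 in wild type but -0.63 and -0.14 in the lines, per the authors' deposited table. Libraries of wild type were not part of the data used. The sign of the wild-type column was taken to be ethylene over air, as the table's values for the mutant lines are, and its normalization is not stated.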

How the data were processed

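Per the file headers, the authors deposited whole-number counts of read pairs per gene from featureCounts 2.0.1 on Araport11 genes, with no strand setting, so a gene and an overlapping antisense gene cannot be told apart. Reads that map to several places or genes were left out by the program's defaults. The submitters' processing notes also name TAIR10, STAR, Trim Galore, FastQC, Subread 2.0.1 and DESeq2. The authors also deposited DESeq2 tables per line with a mean signal, a log2 fold change, a test score and a p-value, which were not used for tests, and log2 fold changes of genes called in wild type, which are quoted as theirs.

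The 2 count tables were joined by locus (36799 genes, 36632 in RefSeq TAIR10.1, whose gene starts equal those of the tables for 99.72%). EdgeR 4.0.16 in R 4.3.3 fitted all 8 libraries in 4 groups (TMM, default filter by group, robust quasi-likelihood, 4 residual degrees of freedom, median prior of 218), with Benjamini-Hochberg adjustment over 20193 genes. The spread is shared across genes and groups. Standard errors follow from each log2 difference and its F statistic. The step was tested on simulated data with the same spread in every gene. The planted differences were larger than the median of the calls, so it does not speak for smaller ones. DESeq2 1.42.0, other scalings and filters, a 1.2-fold minimum, a replicate block and leaving out each library were alternatives. The members and lists were chosen with earlier results of these data known. Named genes are called by both tools at a mean of at least 5 CPM, the first 4 or 6 of each class by absolute difference, plus up to 4 called members of each list at that level and the most abundant member not called, with E1 ALPHA, mtLPD2 and EIN2. Genes outside that rule, which were chosen after their values were seen, are KIN1, CAB1, LHCB6, LHCA3, LHCB4.1, PSB27, AT2G26500, OEP16-1, PMI1, RBCS1A, GUN5, RD22, CTR1, EBF2, ERF1, FTM1, PAD3, HSP17.6II and AT5G18600.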

Additional observations from a re-analysis of the deposited data

Results flagged for a closer look

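The 566 genes called are listed for a closer look because the ethylene response differed between the lines by a test of the difference itself. Among those named, the differences on the log2 scale (e2e3 minus e1e2) were as follows. Opposite responses gave 0.78 in KIN2, 0.56 in AT4G36850, 0.44 in DOT1, 0.42 in ACP4, -0.73 in ATCG00480, -0.49 in LTI65 and -0.48 in GSTU25. The same class held -0.31 in SUS3, 0.26 in GRP7 and 2.13 in AT4G04595. Responses of unlike sign, called in at most 1 line, gave 0.37 in Lhca6, 0.30 in PSAH-1, 0.28 in PSBP-1, 0.27 in HEME1, 0.39 in AT3G11100 and -0.18 in RAP2.12. Stronger rises in e2e3 gave 0.75 in AT2G05510, 0.73 in AT1G49570, 0.41 in HSP70, 0.37 in PRPL35, 0.35 in GATA4, 0.34 in PSBTN and 0.31 in DRT112. The same class held 0.24 in CHLM, 0.21 in PORA, 0.20 in CRD1, 0.32 in mtLPD2, 1.22 in EXPA12, 0.72 in FRO2 and 0.60 in IRT1. The same class held 1.13 in AT5G18600. Stronger falls in e2e3 gave -0.51 in MRN1, -0.46 in SPS2F, -0.46 in AT2G46680, -0.40 in EULS3, -0.37 in AT1G72700, -0.36 in ABF2 and -0.88 in AT1G12010. The same class held -0.24 in NPH4, -0.45 in OLEO2, -0.23 in PAL4 and -0.79 in PXMT1. Weaker rises in e2e3 gave -0.64 in CHX17, -0.61 in AT4G01870, -0.57 in AT1G19900, -0.45 in PYD4, -0.43 in LEA7, -0.34 in PAT1 and -0.26 in LTI30. The same class held -0.25 in EBF1, -0.17 in EIN2 and -0.69 in AT4G33070. Weaker falls in e2e3 gave 0.51 in LHCB2.2, 0.48 in AT5G35660, 0.47 in LHCB2.1, 0.36 in CAB2, 0.36 in ERD7, 0.35 in AT2G23120 and 0.51 in LHCB2.3. The same class held 0.74 in SESA2, 0.31 in EM1, 0.26 in MLS and 0.94 in AT1G03106. AT1G03106, PXMT1, AT4G04595 and AT5G18600 were added after their values were seen, since they were among the 12 genes that passed the 1.2-fold test.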

How the results depend on the processing

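Scaling by RLE or by library size alone, no filter and no robust estimation kept the counts of all calls and of each class within 1.5 times, with 563, 618, 566 and 523 calls, of which 536, 529, 511 and 508 were shared with the 566. DESeq2 gave 226 calls (144 higher and 82 lower in e2e3, 9 opposite, 115 stronger, 54 weaker). Without its independent filter, an alternative chosen after seeing the data, it gave 131 (85 and 46, with 9, 57 and 36). The 1.2-fold minimum gave 12 (6 and 6, with 4, 4 and 4). Same-numbered libraries did not deviate together (correlations from -0.051 to 0.017), so the numbers name libraries only, and the replicate block gave 469 calls (260 and 209, with 27, 211 and 105). Leaving out each library gave 229 to 560 calls (122 to 314 higher, 91 to 284 lower, 12 to 37 opposite, 94 to 241 stronger, 55 to 135 weaker). The calls were 255 and 229 without replicate 1 or 2 of e1e2 in ethylene, 334 and 364 without replicate 1 or 2 of e2e3 in air, and 245 without replicate 2 of e2e3 in ethylene, with the lone sample of a group assumed to vary like the others. Of the 566 calls, 127 were kept in all 8 such fits. The cause of these changes was not tested. No called and named difference reversed its sign under any alternative run. With 2 libraries a group, small differences rest on spread shared across genes.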

Other observations

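A pair of gene groups formed by annotation and location after their values were seen also differed in response. Of 339 tested genes annotated as ribosomal proteins, 46 had the higher response in e2e3 and 0 the lower (13.6%, beside 2.8% of all genes), 36 as a stronger rise. Their median log2 response was 0.134 in e1e2 and 0.278 in e2e3. In air, 110 were lower and 3 higher in e2e3, while in ethylene 0 were lower and 13 higher. Of all tested genes, 5.83% were lower and 9.0% higher in air, and 2.32% lower and 4.24% higher in ethylene. DESeq2 called 27 of the 46, or 10 without its independent filter, library size scaling gave 71 calls and 0 passed the 1.2-fold test. The count ran down to 14 without replicate 2 of e2e3 in ethylene, with 17 without replicate 1 of e1e2 in ethylene, 17 without replicate 1 of e2e3 in air and 22 without replicate 2 of e1e2 in ethylene.

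Of 78 tested loci of the plastid genome, 8 had the higher and 2 the lower response in e2e3. That was 12.8%, beside 2.8% of all genes tested, and the median difference of the loci was 0.42. Their median response was -0.395 in e1e2 and 0.0643 in e2e3. DESeq2 called 1 of the 10, and leaving out each library gave 10 higher and 10 lower calls without replicate 2 of e1e2 in air and 3 and 3 without replicate 1 of e1e2 in air. It gave 3 higher and 2 lower without replicate 1 of e1e2 in ethylene, 1 and 2 without replicate 2 of e1e2 in ethylene, 12 and 2 without replicate 1 of e2e3 in air, 1 and 2 without replicate 2 of e2e3 in air, and 2 and 1 without replicate 2 of e2e3 in ethylene. Without robust estimation there were 12 and 3. The libraries were poly(A)-selected, and how this bears on plastid transcripts was not tested.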
